A study of Mus musculus with 20 samples.

Results

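The 37 genes described here encode enzymes and membrane proteins of the lysosome and components of autophagy, measured in mouse articular chondrocytes, the cells that make and maintain joint cartilage. They were chosen by name, as 7 proteases, 9 glycosidases and sulfatases, 6 proteins that handle lipids, 10 membrane proteins and proton pump subunits, and 5 genes of autophagy and its transcriptional control. All 37 were found among the 54532 genes of the table, and all 37 were among the 12752 genes with at least 1 FPKM in at least 5 of 20 libraries. FPKM are fragments counted in a gene, scaled to its length and by a factor for each library. The chondrocytes came from mice aged 6 weeks and were treated for 48 hours in 4 groups of 5 libraries. The Vehicle group received DMSO alone. A second group received 25-hydroxycholesterol (25HC), an oxidised cholesterol, at 20 µM. A further group received 25HC3S, which differs from 25HC by a sulfate group at position 3, also at 20 µM. The last received 2 µM GW3965, a drug-like compound that activates LXR, the liver X receptors, which are nuclear receptors that oxysterols also bind. The labels do not tie a library to an animal or a culture, so the p-values rest on a spread among libraries that may be technical.

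The lysosome is an acidic compartment in which soluble hydrolases break down proteins, glycans and lipids that arrive by endocytosis or autophagy. The vacuolar proton pump keeps it acidic, and heavily glycosylated membrane proteins line its inner face. In autophagy a double membrane that carries proteins of the LC3 and GABARAP family encloses cytoplasm and fuses with the lysosome, a route by which chondrocytes turn over their own components in a tissue without blood vessels. The transcription factor TFEB and its relatives drive many lysosomal genes together through a short palindrome in their promoters, and LXR raises genes of cholesterol export.

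Libraries held 14653777 to 19365220 fragments in genes, and 4 libraries stood apart: Vehicle replicates 2, 3 and 4 and 25HC3S replicate 1. They held 237 to 1171 genes with exactly 1 fragment, against 1808 to 2057 in the other 16, and mitochondrial genes took 0.369% to 4.07% of their fragments, against 0.889% to 1.41%. Each of the 6 comparisons between groups was therefore fitted with all 20 libraries and again with the other 16, where Vehicle keeps 2 libraries and 25HC3S keeps 4. The treatment check, Abca1, a cholesterol exporter and LXR target, was at 110.8 FPKM ± 2.10 (SD, n = 5) with GW3965, 11.2 ± 2.66 in Vehicle, 5.96 ± 0.482 with 25HC and 9.55 ± 2.04 with 25HC3S, and in the 16 libraries Abca1 was at 8.57 ± 0.0517 (n = 2) in Vehicle and 8.67 ± 0.624 (n = 4) with 25HC3S. Its relative Abcg1 was at 35.4 ± 1.61, 1.88 ± 0.400, 1.46 ± 0.127 and 3.07 ± 1.01 FPKM in the same order, and in the 16 libraries Abcg1 was at 1.81 ± 0.0290 in Vehicle and 2.65 ± 0.427 with 25HC3S. All 10 chondrocyte markers passed the filter, and their summed level was 1816 to 5274 FPKM. All 14 macrophage markers passed it too, with Lyz2, which encodes lysozyme, the highest at 121 to 531 FPKM. Of 8 osteoclast markers, 3 passed, and Calcr did not exceed 0.0135 FPKM in any library.

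The promoters of the genes were searched for the TFEB palindrome, because it is the sequence these genes are known to share. RefSeq promoters of build GRCm38.p6, running from 250 bases before to 50 bases after a start site, were at hand for 32 of the 37 genes. The 8-base core TCACGTGA, found on both strands at once because it is its own reverse complement, was present in the windows of 6 of the 32 genes, or 18.75%, against 304 of 27025 genes. The shorter CACGTG, which the core contains, was present in 11 of the 32, or 34.4%, against 8.09%. The core preceded by G and followed by C, the longer CLEAR palindrome, was present in 1, Cln3, against 0.370% of genes. A direct repeat of AGGTCA with 4 bases between, the strict form of an LXR element, was present in none of the 32 and in 0.0148% of all genes. Each line below gives the sites of the 6 genes, in 30 bases of the gene's own strand, with the core in capitals, its distance from the start site, and the coordinates of the 30 bases.
Ctsa, bases -13 to -6, chr2:164833749-164833778, plus strand: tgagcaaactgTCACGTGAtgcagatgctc
Ctsa, bases 5 to 12, chr2:164833766-164833795, plus strand: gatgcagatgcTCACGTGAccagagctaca
Cln3, bases -122 to -115, chr7:126583340-126583369, minus strand: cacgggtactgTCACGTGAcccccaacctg
Ctsd, bases -99 to -92, chr7:142387908-142387937, minus strand: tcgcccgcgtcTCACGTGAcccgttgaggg
Mcoln1, bases -46 to -39, chr8:3500462-3500491, plus strand: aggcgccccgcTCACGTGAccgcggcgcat
Atp6v0d1, bases -4 to 4, chr8:105566050-105566079, minus strand: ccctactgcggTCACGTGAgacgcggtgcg
Gla, bases -228 to -221, chrX:134601215-134601244, minus strand: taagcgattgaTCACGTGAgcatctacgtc
Gla, bases -195 to -188, chrX:134601182-134601211, minus strand: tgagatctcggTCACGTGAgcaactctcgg

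Of the genes with the core, Ctsd and Atp6v0d1 were higher with GW3965 than with Vehicle (values below), and Ctsa, Cln3, Mcoln1 and Gla passed no test. Gpnmb, the member that separated 25HC3S from 25HC most clearly, had no CACGTG in its window, and Lamp1, which passed no test, had 4 copies. The 250 bases before each start site are shown for that contrast, with CACGTG in capitals.
Gpnmb, chr6:49036268-49036517, plus strand: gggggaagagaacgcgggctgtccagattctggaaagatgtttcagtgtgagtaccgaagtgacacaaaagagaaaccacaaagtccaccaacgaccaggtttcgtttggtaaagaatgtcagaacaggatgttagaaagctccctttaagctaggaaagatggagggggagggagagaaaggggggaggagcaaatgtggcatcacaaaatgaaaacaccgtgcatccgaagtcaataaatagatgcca
Lamp1, chr8:13158911-13159160, plus strand: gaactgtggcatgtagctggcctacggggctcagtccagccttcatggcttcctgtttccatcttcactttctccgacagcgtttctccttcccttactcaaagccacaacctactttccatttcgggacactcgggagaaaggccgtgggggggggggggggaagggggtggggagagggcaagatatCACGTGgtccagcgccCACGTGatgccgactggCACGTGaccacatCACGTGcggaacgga
A match here is a description of these windows, and neither the presence nor the absence of the letters shows whether a factor binds.

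In the 16 libraries the genes spanned a wide range of levels on the length-corrected FPKM scale. Psap, the precursor of the saposins that help degrade sphingolipids, was the most abundant, with a mean of 607 FPKM and a range of 553 to 687. It was followed by Ctsd at 521, Lamp1 at 347, Ctsb at 259 and Cd63 at 192. At the other end stood Gla at 7.08, Mcoln1 at 6.99, Cln3 at 2.69 and Tfeb at 1.76 FPKM. Within a group the values lay close together once the 4 libraries were set aside. The median coefficient of variation (SD over mean) of the 37 genes was 2.48% in Vehicle (n = 2), 4.27% with 25HC (n = 5), 4.00% with 25HC3S (n = 4) and 3.00% with GW3965 (n = 5). An SD from 2 libraries is uncertain, and in Vehicle the genes ran from 0.288% to 11.8%. With the 4 libraries it was 27.2% in Vehicle and 12.7% with 25HC3S.

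**Figure D1:**
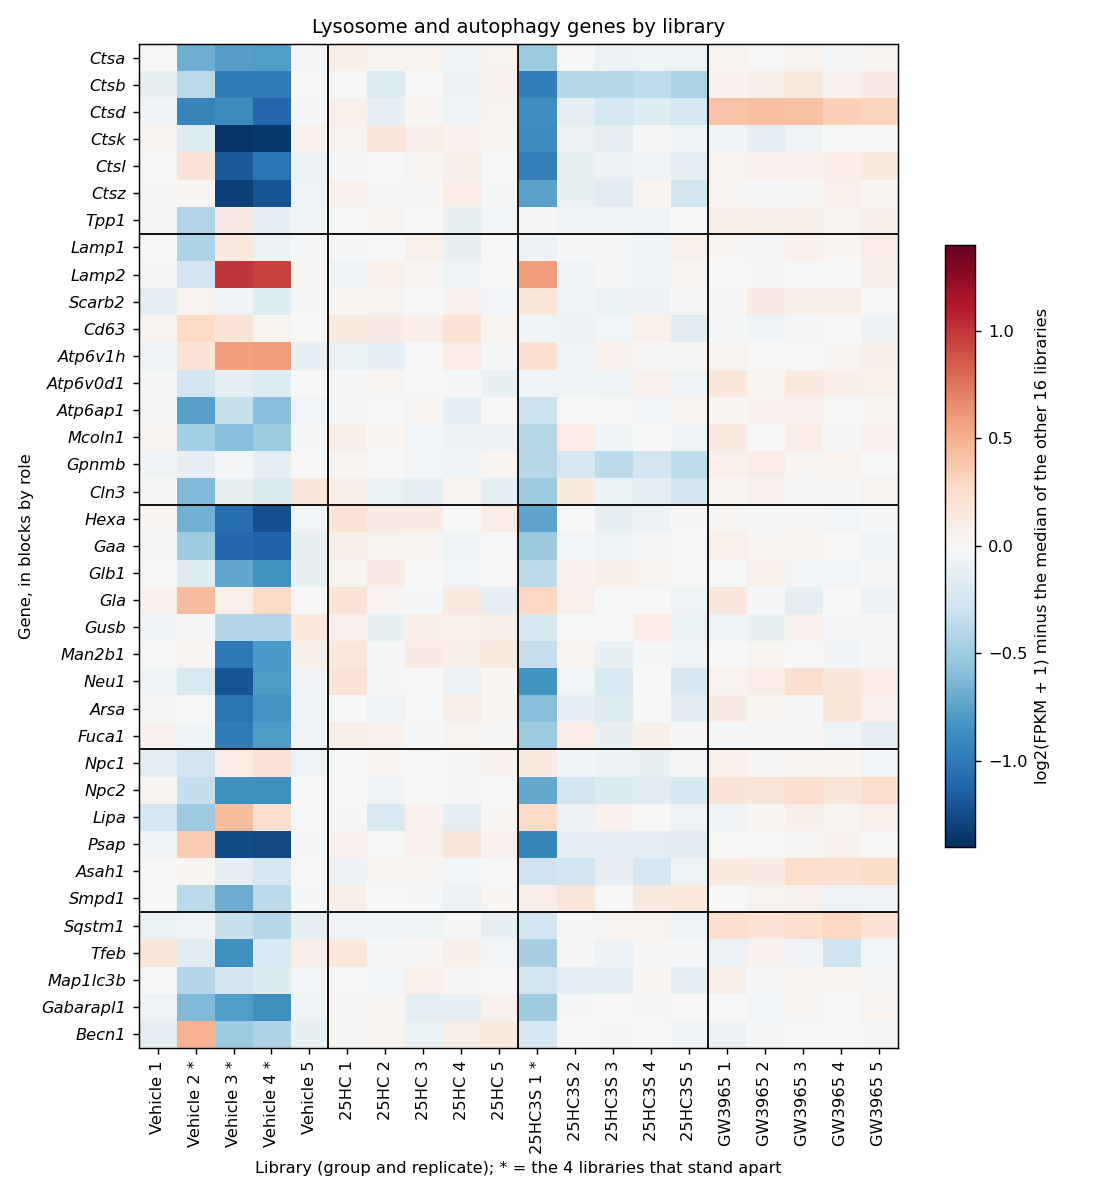
Each row is 1 of the 37 genes, in blocks by role, and each column 1 of the 20 libraries. Colour is log2(FPKM + 1) minus the gene's median over the 16 libraries other than the 4 marked with an asterisk, so blue is lower and red higher; Vehicle 3, Vehicle 4 and 25HC3S 1 are blue for most genes and red for Lamp2, and the GW3965 columns are red for Ctsd, Asah1, Npc2 and Sqstm1.

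The 4 libraries stood apart from their own groups in these genes too. Vehicle 3 lay below both Vehicle 1 and Vehicle 5 in 27 of 37 genes, Vehicle 4 in 31 and Vehicle 2 in 24, with median ratios to the mean of Vehicle 1 and 5 of 0.609, 0.690 and 0.857. Replicate 1 of 25HC3S lay below all 4 others of its group in 27 genes, with a median ratio of 0.806. In Vehicle 3, Vehicle 4 and 25HC3S 1 alike, 12 genes were below a ratio of 0.7: Arsa, Ctsb, Ctsd, Ctsk, Ctsl, Ctsz, Fuca1, Gabarapl1, Hexa, Neu1, Psap and Tfeb. These counts were not made over all tested genes, so they do not set the 37 apart from other genes. Lamp2, named here after its values were seen, was the 1 gene above 1.3 in those 3 libraries. It stood at 69.4, 58.4, 143, 139 and 71.3 FPKM in Vehicle 1 to 5 and at 107, 68.6, 69.4, 68.5 and 72.4 with 25HC3S. With 25HC Lamp2 lay between 67.6 and 74.5 FPKM and with GW3965 between 70.3 and 74.7, so outside the 4 libraries its level hardly varied.

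The GC content of the transcript moved with these deviations. Over the 12742 tested genes with a known transcript, the rank correlation between a library's deviation from the mean of the 16 libraries and GC content was -0.55 in Vehicle 3, -0.56 in Vehicle 4, -0.51 in 25HC3S 1 and -0.21 in Vehicle 2, and it lay between -0.25 and 0.30 in the others. Over the 37 genes alone it was -0.52, -0.46, -0.44 and -0.16 in the same 4 libraries, and between -0.36 and 0.43 in the others. These are descriptions over genes that share a library. The 37 genes had a median GC content of 51.5%, against 49.6% over the tested genes, from 37.6% in Atp6v1h and 38.7% in Lamp2 up to 63.2%. With GC content corrected, which was added once the data had been seen, the counts called below became 1 for 25HC3S minus 25HC, 0 for 25HC minus Vehicle, 2 for 25HC3S minus Vehicle, 7 for GW3965 minus Vehicle, 1 for GW3965 minus 25HC and 6 for GW3965 minus 25HC3S. Of the 12742 genes then tested, 23, 3, 81, 453, 136 and 388 were called higher, in the same order. Those called lower were 129, 1, 201, 367, 164 and 345.

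**Figure D2:**
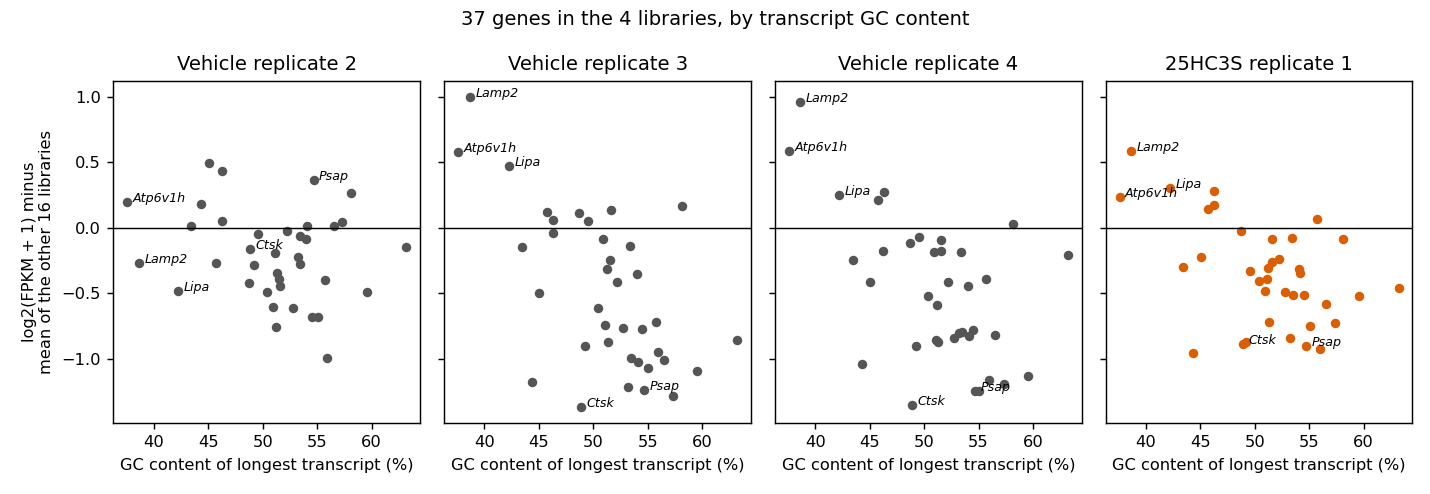
Each point is 1 of the 37 genes in 1 of the 4 libraries. The horizontal axis is the GC content of its longest transcript in percent, and the vertical axis is log2(FPKM + 1) minus the mean of the other 16 libraries; in Vehicle 3, Vehicle 4 and 25HC3S 1, Lamp2 and Atp6v1h at the GC-poor end lie above 0 and most genes above 50% GC lie below it.

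All 6 comparisons were tested with limma on log2(FPKM + 1), and differences and their standard errors (SE) are given on that scale. A gene was called at a Benjamini-Hochberg adjusted p under 0.05 over all 12752 genes. Between 25HC3S and 25HC, at matched dose and time, 1 of the 37 genes was lower with 25HC3S and none was higher with all 20 libraries, while 0.659% and 0.157% of all tested genes were called lower and higher. In the 16 libraries 10 were lower and none higher, against 4.7% and 2.49% of tested genes. Against Vehicle, GW3965 raised 7 genes and lowered none with all 20 libraries, beside 3.49% and 2.97% of tested genes. It raised 5 and lowered none in the 16, beside 3.98% and 3.79%. None of the 7 was called when the fit held Vehicle and GW3965 alone, where 0.659% of all tested genes were called higher and 0.533% lower. Without Vehicle 1 or without Vehicle 5, 18 of the 37 were called, beside 14.3% and 13.1% of tested genes higher and 11.2% and 10.4% lower. Against Vehicle, 25HC3S raised 1 and lowered 1, beside 0.463% and 1.14% of tested genes, and in the 16 libraries raised none and lowered 3, beside 1.33% and 2.63%.

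None of the 37 was called between 25HC and Vehicle with all 20 libraries, where 0.0314% of tested genes were called higher and 0.00784% lower. None was called in the 16 either, where these shares were 0.0157% and 0.00784%. At an unadjusted p under 0.05, limma gave 19 of the 37 and 3863 genes in all with 20 libraries, and 4 of the 37 and 720 genes in all with 16. The median difference of the 37 between 25HC and Vehicle was 0.29 with all 20 libraries, against 0.03 over all tested genes, and 0.03 in the 16, against 0.00. With 1 library left out at a time, 19 of the 37 were called between 25HC and Vehicle without Vehicle 1, and 16 without Vehicle 5, which are the Vehicle libraries outside the 4. In those fits 11.3% and 9% of all tested genes were called higher and 9.52% and 7.35% lower. Calls thus rose over all tested genes too, and the share called was larger among the 37.

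GW3965 was given at 2 µM and the oxysterols at 20 µM, so comparisons between them are of these treatments and not of matched doses. Between GW3965 and 25HC, groups that hold none of the 4 libraries, no member was called when all 20 libraries set the spread, beside 0.847% of tested genes called higher and 0.894% lower. At an unadjusted p under 0.05, 4 members and 957 genes passed. With the spread taken from the 16 libraries, 7 members were higher with GW3965 and 2 lower, beside 6.3% and 6.82%, and the differences themselves stayed as they were. Between GW3965 and 25HC3S, 5 members were higher with GW3965 and none lower with all 20 libraries, beside 2.51% and 2.13% of tested genes. In the 16 libraries 15 were higher and none lower, beside 9.27% and 8.59%.

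**Figure D3:**
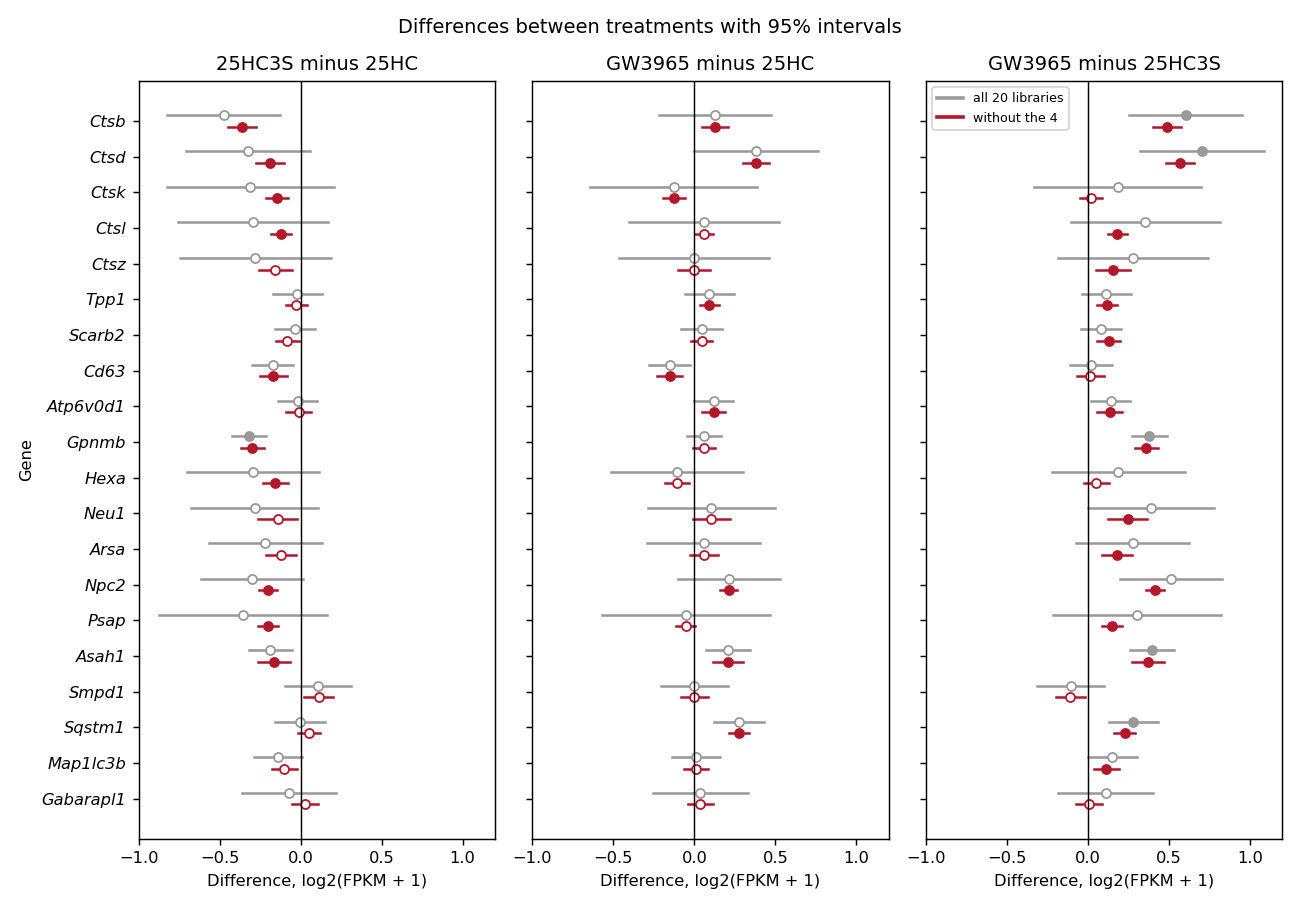
The difference in log2(FPKM + 1) between 2 treatments (horizontal axis) is drawn for the 20 genes called in at least 1 comparison (vertical axis), with its 95% interval from limma, in grey with all 20 libraries and in red without the 4. Filled points were called at an adjusted p under 0.05; the intervals without the 4 libraries are narrower, and Ctsb, Ctsd, Gpnmb, Asah1 and Sqstm1 are filled in both colours for GW3965 minus 25HC3S.

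Among the 7 proteases, the cathepsins B and D set the treatments apart. Ctsd encodes cathepsin D, an aspartic protease that also activates other lysosomal enzymes (chromosome 7, 142375911 to 142388038, minus strand). It was at 475, 258, 266, 229.7 and 484 FPKM in Vehicle 1 to 5, at 519, 456, 502, 469.9 and 510.3 with 25HC, at 269.7, 449, 416, 439 and 417 with 25HC3S, and at 651, 659, 656, 620.0 and 611 with GW3965. The 5 GW3965 libraries were above all 15 others, and Vehicle 2, 3 and 4 and 25HC3S 1 were the lowest. Ctsd rose with GW3965 against Vehicle by 0.97 (SE 0.18, adjusted p = 0.0027) with all 20 libraries and by 0.41 (SE 0.05, adjusted p = 7.0e-05) in the 16. The 16 libraries also called it 0.38 above 25HC (SE 0.04, adjusted p = 5.5e-06), a change in mean FPKM of 30.1%, and the 95% interval with all 20 libraries ran from -0.00 to 0.76. Against 25HC it fell with 25HC3S by 0.19 in the 16 libraries (SE 0.04, adjusted p = 0.0087), where the groups did not overlap. With all 20 libraries that difference was -0.32 (95% interval -0.71 to 0.06, adjusted p = 0.80).

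Ctsb encodes cathepsin B, a cysteine protease (chromosome 14, 63122462 to 63145923, plus strand). It was at 255, 210.5, 137, 137 and 275 FPKM in Vehicle, at 273, 242, 273, 258 and 285 with 25HC, at 139, 207, 206, 213 and 200.5 with 25HC3S, and at 286, 289, 297, 286 and 295 with GW3965. Every 25HC3S library was below every 25HC library, and every GW3965 library was above every library of the other groups. Between the oxysterols Ctsb fell with 25HC3S by 0.36 in the 16 libraries (SE 0.04, adjusted p = 4.3e-05), a change in mean FPKM of -22.3%. With all 20 libraries the difference was -0.47 (95% interval -0.82 to -0.13, adjusted p = 0.36). Against Vehicle it was -0.02 with all 20 libraries and -0.35 in the 16 (adjusted p = 0.0013). This comparison thus depended on which libraries were used, and the 16 leave out low libraries of both Vehicle and 25HC3S. GW3965 was higher than 25HC3S by 0.60 (adjusted p = 0.042) and 0.49 (adjusted p = 3.4e-07). Against Vehicle, GW3965 was higher by 0.58 (adjusted p = 0.043) with all 20 libraries, and in the 16 the difference was 0.13 (adjusted p = 0.14). The 16 also called it 0.13 above 25HC (SE 0.04, adjusted p = 0.038).

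Ctsk and Ctsl encode further cysteine cathepsins, of which cathepsin K is known for degrading collagen. Ctsk was at 149.7, 129, 55.5, 56.2 and 152 FPKM in Vehicle, at 149.9, 162, 155, 151 and 149 with 25HC, at 77.8, 137, 134, 143 and 139.6 with 25HC3S, and at 140.1, 133, 138, 144 and 146 with GW3965. All 25HC libraries were above all 25HC3S and all GW3965 libraries, whose ranges overlapped outside 25HC3S 1. Ctsk fell in the 16 libraries against 25HC by 0.15 with 25HC3S (SE 0.03, adjusted p = 0.013) and by 0.13 with GW3965 (SE 0.03, adjusted p = 0.013), and neither was called with all 20. Ctsl was at 79.1, 90.4, 34.7, 38.3 and 75.1 FPKM in Vehicle, at 78.7, 79.2, 81.9, 84.6 and 79.8 with 25HC, at 40.5, 74.0, 74.9, 75.4 and 72.5 with 25HC3S, and at 82.5, 82.8, 83.0, 85.7 and 87.5 with GW3965. Its 25HC3S values lay below both the 25HC and the GW3965 values. It fell in the 16 with 25HC3S against 25HC by 0.12 (adjusted p = 0.016), and GW3965 was higher by 0.18 than 25HC3S (adjusted p = 0.00027) and by 0.13 than Vehicle (adjusted p = 0.041). None of these was called with all 20 libraries.

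Ctsz and Tpp1 were called in comparisons with GW3965 and in no other. Ctsz, which encodes the carboxypeptidase cathepsin Z, was at 162, 167, 65.5, 70.0 and 156 FPKM in Vehicle, at 160.3 to 176 with 25HC, at 97.3, 152, 146, 168 and 134 with 25HC3S and at 161 to 172 with GW3965. The groups overlapped, and GW3965 minus 25HC3S in the 16 libraries was the 1 comparison called for Ctsz (0.15, SE 0.05, adjusted p = 0.039; 0.28, SE 0.22, with all 20). Its difference between 25HC3S and 25HC in the 16 was as large as that of Ctsk, at -0.16, with a wider error (SE 0.05, adjusted p = 0.068). Tpp1 encodes tripeptidyl peptidase 1, whose loss causes a neuronal storage disease. It was at 40.2, 30.0, 43.9, 37.3 and 38.9 FPKM in Vehicle, at 40.4, 41.7, 40.8, 37.8 and 39.5 with 25HC, at 40.0, 38.9, 39.0, 38.6 and 40.7 with 25HC3S, and at 43.0, 43.3, 42.8, 41.6 and 42.9 with GW3965. GW3965 was above every 25HC3S library, and in the 16 libraries it was higher by 0.12 than 25HC3S (adjusted p = 0.0097) and by 0.09 than 25HC (adjusted p = 0.037). Between 25HC3S and 25HC the interval for Tpp1 was narrow, from -0.09 to 0.04 in the 16 libraries. Ctsa, the protective protein of the sialidase complex, was called in no comparison, with means of 95.9, 98.9, 93.4 and 98.0 FPKM in Vehicle, 25HC, 25HC3S and GW3965 in the 16 libraries.

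**Figure D4:**
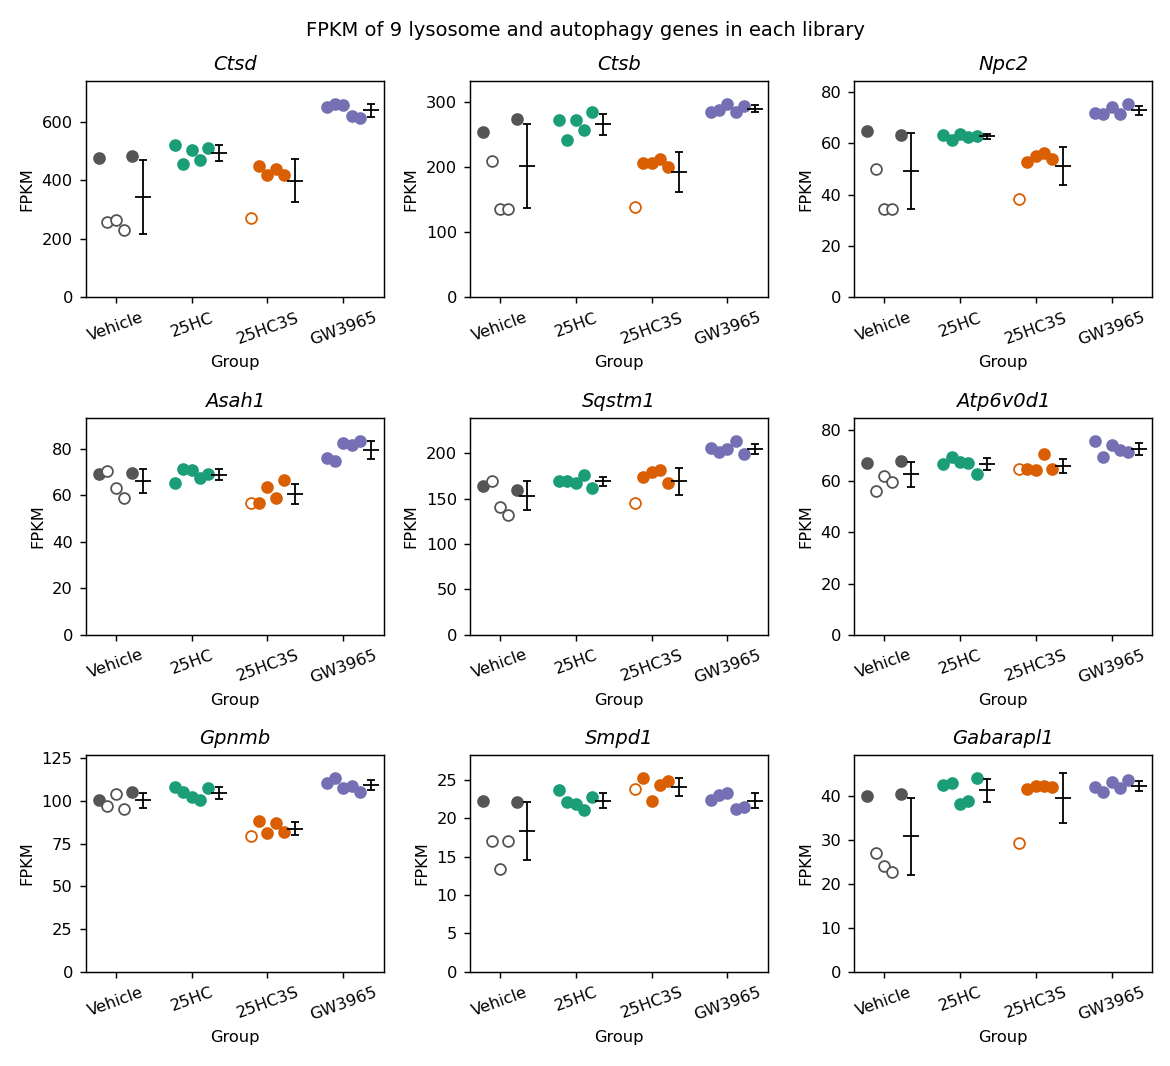
FPKM (vertical axis, from 0) of 9 genes in each library of the 4 groups (horizontal axis). Open circles are Vehicle 2, 3 and 4 and 25HC3S 1, and the bar beside each group is the mean ± SD of its 5 libraries; Ctsd, Ctsb, Npc2 and Sqstm1 are highest with GW3965, and all 5 25HC3S values of Gpnmb lie below the other groups.

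Among the 10 membrane proteins and pump subunits, Gpnmb was the member lowered by 25HC3S whichever libraries were used. Gpnmb encodes a glycoprotein of lysosomes and melanosomes, abundant in macrophages and osteoclasts (chromosome 6, 49036546 to 49070929, plus strand). It was at 100.4, 97.0, 104, 95.2 and 105 FPKM in Vehicle, at 108, 105, 102, 100.4 and 107 with 25HC, at 79.5, 88.4, 81.3, 87.3 and 82.0 with 25HC3S, and at 110.4, 113, 108, 109 and 105 with GW3965. All 5 25HC3S libraries were below all 15 others. Against 25HC it fell with 25HC3S by 0.32 (SE 0.05, 95% interval -0.42 to -0.21, adjusted p = 0.0019) with all 20 libraries and by 0.30 (SE 0.03, adjusted p = 4.0e-05) in the 16, a change in mean FPKM of -19.9% and -18.9%. Against Vehicle it fell by 0.26 (adjusted p = 0.011) and 0.27 (adjusted p = 0.0019). GW3965 was higher than 25HC3S by 0.38 (adjusted p = 6.5e-05) and 0.36 (adjusted p = 1.2e-06). The call against Vehicle was lost when the fit held only Vehicle and 25HC3S (adjusted p = 0.57), and at a difference of -0.21 when FPKM were scaled to equal sums per library (adjusted p = 0.096).

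Cd63, a tetraspanin of late endosomes and exosomes, was at 196, 231, 216, 195 and 189 FPKM in Vehicle, at 208, 206, 203, 216 and 196 with 25HC, at 180.3, 179, 185, 199 and 171 with 25HC3S, and at 187, 182, 186, 191 and 179.8 with GW3965. The GW3965 values were below all 25HC values, and the 25HC3S values were too apart from replicate 4. Cd63 fell in the 16 libraries against 25HC by 0.17 with 25HC3S (SE 0.04, adjusted p = 0.015) and by 0.15 with GW3965 (SE 0.04, adjusted p = 0.011). Over all 20 these differences were -0.17 (adjusted p = 0.37) and -0.15 (adjusted p = 0.42). Scarb2 encodes LIMP-2, the receptor that carries glucocerebrosidase to the lysosome. It was at 18.2, 20.6, 19.2, 17.4 and 19.7 FPKM in Vehicle, at 19.4 to 20.7 with 25HC, at 22.5, 18.9, 18.6, 18.7 and 19.6 with 25HC3S and at 20.1, 21.6, 21.1, 21.1 and 20.0 with GW3965. Its 1 call was GW3965 above 25HC3S in the 16 libraries (0.13, SE 0.03, adjusted p = 0.012; 0.08, SE 0.06, with all 20), where 25HC3S 1, the highest of its group, was left out.

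Atp6v0d1 encodes a subunit of the membrane sector of the proton pump (chromosome 8, 105524465 to 105566047, minus strand). It was at 67.1, 56.4, 62.1, 59.9 and 68.1 FPKM in Vehicle, at 66.7, 69.5, 67.5, 67.0 and 62.9 with 25HC, at 64.8, 64.9, 64.3, 70.7 and 64.9 with 25HC3S, and at 75.7, 69.7, 74.4, 72.2 and 71.3 with GW3965. The GW3965 libraries were above all Vehicle and 25HC libraries and overlapped 25HC3S through its replicate 4. GW3965 was higher than Vehicle by 0.21 (SE 0.06, adjusted p = 0.035) with all 20 libraries, and the difference was 0.10 (adjusted p = 0.21) in the 16. Against 25HC and 25HC3S it was not called with all 20 libraries, and in the 16 it was higher by 0.12 (adjusted p = 0.025) and 0.13 (adjusted p = 0.015). Lamp1, Lamp2, Mcoln1, Cln3, Atp6v1h and Atp6ap1 were called in no comparison. Lamp1, the most abundant membrane glycoprotein here, was at 343 FPKM ± 14.8 (SD, n = 5) with 25HC and 357 ± 11.4 with GW3965, and at 344 ± 14.9 (n = 4) with 25HC3S in the 16 libraries. For Lamp1 the interval of 25HC3S minus 25HC in the 16 libraries was -0.08 to 0.08.

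The 9 glycosidases and sulfatases, which trim sugars and sulfate groups from glycoproteins, glycolipids and glycosaminoglycans, held few calls. Hexa encodes the alpha subunit of beta-hexosaminidase. It was at 159, 98.0, 74.8, 66.3 and 152 FPKM in Vehicle, at 178, 169.8, 169.5, 156 and 168 with 25HC, at 93.4, 157, 144, 148 and 154 with 25HC3S, and at 161, 154, 158, 153 and 154 with GW3965. The 25HC group was the highest and overlapped both other treatments. Hexa fell in the 16 libraries with 25HC3S against 25HC by 0.16 (SE 0.04, adjusted p = 0.014), and its difference with all 20 was -0.29 (95% interval -0.70 to 0.12).

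Neu1, the lysosomal sialidase, was at 11.3, 10.0, 4.55, 6.41 and 11.4 FPKM in Vehicle, at 13.5, 11.6, 11.9, 11.1 and 12.1 with 25HC, at 6.19, 11.5, 10.1, 11.7 and 9.99 with 25HC3S, and at 12.3, 12.7, 13.9, 13.3 and 12.8 with GW3965. GW3965 was above every 25HC3S and Vehicle library. It was called in the 16 libraries against 25HC3S (0.25, SE 0.06, adjusted p = 0.0062), and in no comparison with all 20. Arsa, the sulfatase that degrades sulfated galactolipids, was at 17.8, 18.2, 8.42, 9.76 and 17.3 FPKM in Vehicle, at 17.2 to 19.3 with 25HC, at 11.7, 16.6, 15.9, 18.1 and 16.3 with 25HC3S, and at 19.7, 18.5, 17.8, 20.5 and 19.0 with GW3965. The 25HC3S and GW3965 values overlapped, and it was called for GW3965 minus 25HC3S in the 16 libraries (0.18, SE 0.04, adjusted p = 0.0090; 0.28, SE 0.17, with all 20). Gaa, Glb1, Gla, Gusb, Man2b1 and Fuca1 passed no test. Their means in the 16 libraries ran from 95.9 to 101 FPKM for Gaa, 22.7 to 24.4 for Glb1, 6.92 to 7.25 for Gla, 33.2 to 35.2 for Gusb, 21.3 to 23.3 for Man2b1 and 33.2 to 35.3 for Fuca1.

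Among the 6 genes of lipid handling, Npc2 and Asah1 rose with GW3965 with all 20 libraries and in the 16. Npc2 encodes the soluble protein that hands cholesterol from the lysosomal lumen to the membrane protein NPC1 (chromosome 12, 84754562 to 84773152, minus strand). It was at 64.8, 49.8, 34.3, 34.3 and 63.1 FPKM in Vehicle, at 63.2, 61.2, 63.6, 62.6 and 62.7 with 25HC, at 38.2, 52.7, 55.0, 56.3 and 53.8 with 25HC3S, and at 71.8, 71.2, 74.2, 71.4 and 75.2 with GW3965. GW3965 lay above all other libraries, and 25HC3S lay below all 25HC libraries and below Vehicle 1 and 5. Against Vehicle, Npc2 rose with GW3965 by 0.61 (SE 0.15, adjusted p = 0.022) with all 20 libraries and by 0.18 (SE 0.03, adjusted p = 0.0022) in the 16. With 25HC3S it fell against 25HC by 0.20 in the 16 (SE 0.03, adjusted p = 0.00023) and against Vehicle by 0.23 (adjusted p = 0.0013). Over all 20 those differences were -0.30 (adjusted p = 0.75) and 0.09 (adjusted p = 0.74), the latter of opposite sign. GW3965 was higher in the 16 by 0.41 than 25HC3S (SE 0.03, adjusted p = 1.9e-08) and by 0.21 than 25HC (SE 0.02, adjusted p = 2.5e-05). Npc1, the membrane partner, was called in no comparison, with means of 9.72, 10.7, 10.0 and 10.7 FPKM in Vehicle, 25HC, 25HC3S and GW3965 in the 16 libraries.

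Asah1 encodes acid ceramidase (chromosome 8, 41340197 to 41374773, minus strand). It was at 68.9, 70.4, 63.0, 58.6 and 69.3 FPKM in Vehicle, at 65.3, 71.2, 70.8, 67.5 and 69.0 with 25HC, at 56.6, 56.8, 63.3, 58.7 and 66.5 with 25HC3S, and at 76.0, 74.7, 82.3, 81.6 and 83.1 with GW3965. All 5 GW3965 libraries were above the 15 others. Asah1 was one of the genes that the 4 libraries moved little, and it rose with GW3965 against Vehicle by 0.27 (SE 0.06, adjusted p = 0.018) with all 20 and by 0.20 (SE 0.06, adjusted p = 0.047) in the 16. Leaving out GW3965 replicate 3, 4 or 5 brought the former to an adjusted p of 0.053, 0.050 and 0.051, and a fit of those groups alone to 0.19. Against 25HC3S it was higher with GW3965 by 0.39 (adjusted p = 0.00054) and 0.37 (adjusted p = 2.7e-05). In the 16 it was 0.21 above 25HC (SE 0.04, adjusted p = 0.0045). Against 25HC it fell with 25HC3S by 0.16 in the 16 libraries (SE 0.05, adjusted p = 0.042), with overlapping groups.

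Psap was at 592, 779, 256, 254 and 604 FPKM in Vehicle, at 635, 612, 635, 687 and 635 with 25HC, at 324, 562, 556, 557 and 553 with 25HC3S, and at 609, 611, 616, 639 and 611 with GW3965. Outside the 4 libraries the 25HC3S values were below every other value. Psap fell in the 16 libraries with 25HC3S against 25HC by 0.20 (SE 0.03, adjusted p = 0.00058), and GW3965 was higher than 25HC3S by 0.15 (SE 0.03, adjusted p = 0.0020). Neither was called with all 20 libraries, where the interval of 25HC3S minus 25HC was -0.88 to 0.16. Smpd1 encodes acid sphingomyelinase and was the member higher with 25HC3S. It was at 22.2, 17.0, 13.4, 17.1 and 22.1 FPKM in Vehicle, at 23.7, 22.2, 21.8, 21.1 and 22.8 with 25HC, at 23.9, 25.2, 22.2, 24.3 and 24.9 with 25HC3S, and at 22.3, 23.1, 23.4, 21.2 and 21.4 with GW3965. Smpd1 rose with 25HC3S against Vehicle by 0.40 (SE 0.10, adjusted p = 0.048) with all 20 libraries, and in the 16 the difference was 0.12 (adjusted p = 0.28). Lipa, the acid lipase of cholesteryl esters, passed no test, with a mean of 43.8 FPKM in Vehicle and 48.7 with GW3965 in the 16 libraries.

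Among the 5 genes of autophagy and its control, Sqstm1 rose with GW3965. Sqstm1 encodes p62, a receptor that brings ubiquitinated cargo into autophagosomes (chromosome 11, 50199366 to 50210827, minus strand). It was at 164, 169, 141, 132 and 160.1 FPKM in Vehicle, at 169.6, 169, 168, 176 and 162 with 25HC, at 145, 173, 179, 181 and 167 with 25HC3S, and at 206, 201, 205, 213 and 199 with GW3965. The 5 GW3965 libraries were above all 15 others. Sqstm1 rose with GW3965 against Vehicle by 0.42 (SE 0.07, adjusted p = 0.0014) with all 20 libraries and by 0.34 (SE 0.04, adjusted p = 4.1e-05) in the 16. It was higher than with 25HC3S by 0.28 (adjusted p = 0.031) and 0.23 (adjusted p = 7.7e-05). Against 25HC it was higher by 0.28 in both fits, with an adjusted p of 0.062 and 9.2e-06. Between 25HC3S and 25HC the difference was 0.05 in the 16 libraries, with an interval of -0.01 to 0.12.

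The LC3 and GABARAP family members moved less than Sqstm1 in the 16 libraries. Gabarapl1 was at 40.1, 26.9, 24.1, 22.8 and 40.4 FPKM in Vehicle, at 42.5, 42.9, 38.3, 38.8 and 44.0 with 25HC, at 29.4, 41.7, 42.3, 42.4 and 42.0 with 25HC3S, and at 42.1, 41.0, 43.1, 41.8 and 43.7 with GW3965. Its rise with GW3965 against Vehicle of 0.49 (SE 0.14, adjusted p = 0.044) with all 20 libraries became 0.07 (adjusted p = 0.47) in the 16. Map1lc3b, which encodes LC3B, was at 26.4, 19.7, 21.95, 23.0 and 25.6 FPKM in Vehicle, at 25.7 to 27.8 with 25HC, at 21.6, 24.1, 24.0, 26.9 and 24.2 with 25HC3S, and at 28.1, 26.2, 27.0, 26.9 and 26.1 with GW3965. Its 1 call was GW3965 above 25HC3S in the 16 libraries (0.11, SE 0.04, adjusted p = 0.041; 0.15, SE 0.07, with all 20), with overlapping groups. Becn1, part of the kinase complex that starts autophagosomes, passed no test, with means of 8.06 to 9.13 FPKM in the 16 libraries.

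Tfeb, the transcription factor of lysosomal genes, was low in every library and called in no comparison (chromosome 17, 47737030 to 47792419, plus strand). It was at 2.08, 1.49, 0.52, 1.38 and 1.94 FPKM in Vehicle, at 2.04, 1.73, 1.79, 1.93 and 1.69 with 25HC, at 0.996, 1.79, 1.60, 1.798 and 1.70 with 25HC3S, and at 1.60, 1.88, 1.67, 1.25 and 1.69 with GW3965. Outside the 4 libraries the GW3965 values were below both remaining Vehicle values. GW3965 minus Vehicle was 0.11 (95% interval -0.20 to 0.42) with all 20 libraries and -0.21 (95% interval -0.38 to -0.03, adjusted p = 0.17) in the 16. Log2(FPKM + 1) understates differences at this level. RNA levels do not measure the activity of TFEB, which is known to be controlled by its movement into the nucleus.

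Of 141 further lysosome and autophagy genes in 7 lists, 139 were tested. GW3965 against Vehicle raised 5 and lowered 1 with all 20 libraries, and raised 8 and lowered 1 in the 16. The raised shares, 3.6% and 5.76% of the 139, stood beside 3.49% and 3.98% of all tested genes, and the lowered share, 0.719% in both, beside 2.97% and 3.79%. Of the 15 other subunits of the proton pump, 3 rose in the 16 libraries: Atp6v1g1 by 0.32 (SE 0.05), Atp6v0a1 by 0.23 (SE 0.04) and Atp6v1b2 by 0.14 (SE 0.04). Over all 20 Atp6v1g1 alone was called (0.63, SE 0.18). Mitf, a relative of Tfeb, fell with GW3965 against Vehicle by 0.41 (SE 0.12, adjusted p = 0.046) with all 20 libraries and by 0.21 (SE 0.06, adjusted p = 0.048) in the 16. GW3965 against 25HC called none with all 20 libraries, and 13 higher and 4 lower in the 16, or 9.35% and 2.88%, beside 6.3% and 6.82% of all tested genes. GW3965 against 25HC3S called 5 higher and 1 lower, or 3.6% and 0.719%, beside 2.51% and 2.13%. In the 16 it called 25 higher and 5 lower, or 18% and 3.6%, beside 9.27% and 8.59%, among them 7 higher pump subunits and 1 lower, Atp6v0d2 (-0.47, SE 0.08), which is also 1 of the osteoclast markers.

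Between 25HC3S and 25HC none of the 139 was called with all 20 libraries, and 3 were higher and 8 lower in the 16. These shares, 2.16% and 5.76%, were near the 2.49% and 4.7% of all tested genes. The largest differences were in proteases: Ctss fell by 0.53 (SE 0.10), Ctsc by 0.48 (SE 0.09) and Lgmn by 0.46 (SE 0.05), and with Scpep1 they made 4 of 10 tested in that list. Ctss, Ctsc and Lgmn encode cathepsin S, cathepsin C and legumain, proteases best known from antigen-presenting cells. Bnip3, a receptor for the autophagy of mitochondria, rose by 0.28 (SE 0.05). No gene of the 10 for mannose 6-phosphate sorting was called in that comparison. Against Vehicle, 25HC3S raised 1 and lowered 1 of the 139 with all 20 libraries, where 0.463% of all tested genes were higher and 1.14% lower. It raised 1 and lowered 4 in the 16, where 1.33% of all tested genes were higher and 2.63% lower. Between 25HC and Vehicle none of the 139 was called with either set.

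Some markers of 3 cell types also differed between 25HC3S and 25HC. The summed level of the 14 macrophage markers was 629 to 765 FPKM with 25HC3S, 739 to 1051 with 25HC, 937 to 1089 with GW3965 and 894 to 1065 in Vehicle in the 16 libraries, and the full ranges of 25HC3S and Vehicle were 397 to 765 and 445 to 1065. Between 25HC3S and 25HC, 9 of the 14 fell and 1 rose in the 16 libraries, where 4.7% of all tested genes fell and 2.49% rose, and 3 fell and 1 rose with all 20, where 0.659% fell and 0.157% rose. With all 20 libraries the 3 were Mrc1 (-1.52, SE 0.13), Fcgr1 (-0.89, SE 0.17) and Adgre1 (-0.67, SE 0.09), and Cd14 was the 1 that rose (0.70, SE 0.11). None of the 14 was at 0 in all libraries. Their sums weigh most on Lyz2, at 121 to 531 FPKM, which was not called between 25HC3S and 25HC in either fit. Of the 10 chondrocyte markers, Comp (-0.27, SE 0.04), Acan (-0.38, SE 0.07) and Col11a2 (-0.45, SE 0.07) fell in the 16 and none with all 20. Of 6 markers of fibroblasts and dedifferentiated cells, Col1a1 (-0.21, SE 0.06), Col3a1 (-0.50, SE 0.03) and Postn (-0.46, SE 0.05) fell in the 16, and Postn fell with all 20 as well (-0.41, SE 0.06). Fibroblast markers summed to 4110 to 4321 FPKM with 25HC3S, 4615 to 5379 with 25HC, 4242 to 5028 with GW3965 and 4378 to 4419 in Vehicle in the 16 libraries. Over all 5 Vehicle libraries their sum ran from 3602 to 8777 FPKM. The part of these 3 lists in the lower Gpnmb, Ctsb, Npc2, Psap and Ctss was not tested. In bulk RNA, fewer cells of a type and less RNA per cell cannot be told apart.

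Between GW3965 and 25HC3S, the comparison with the most members called in the 16 libraries, 10 of the 14 macrophage markers were higher with GW3965 there and 1 lower. With all 20 libraries 6 were higher and 1 lower. Of all tested genes 9.27% were higher and 8.59% lower in the 16, and 2.51% and 2.13% with all 20. Of the chondrocyte markers 4 were higher in the 16 and of the fibroblast markers 3, and none of either was lower. With all 20 libraries 1 fibroblast marker was higher and no chondrocyte marker was called. Against Vehicle, none of the macrophage markers rose with GW3965 and 1 fell in the 16, and none rose and 2 fell with all 20. The shares of all tested genes were 3.98% higher and 3.79% lower in the 16, and 3.49% and 2.97% with all 20. Against 25HC, 1 rose and 1 fell in the 16, beside 6.3% and 6.82% of all tested genes, and 1 fell with all 20, beside 0.894%.

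Chondrocyte markers summed to 4012 to 4951 FPKM with GW3965, 3794 to 4164 with 25HC, 3322 to 3831 with 25HC3S and 3561 to 3669 in Vehicle in the 16 libraries. The GW3965 sums were thus above both of these Vehicle sums, but Vehicle ran from 1816 to 5274 FPKM over all 5 libraries. All these sums weigh most on Col2a1, the highest of these markers at 1059 to 3501 FPKM. Col2a1 (0.49, SE 0.09) and Col11a2 (0.40, SE 0.08) rose against Vehicle in the 16, where the median difference of the 10 markers was 0.01. With all 20 libraries no chondrocyte marker was called between GW3965 and Vehicle or between GW3965 and 25HC. Against 25HC, 2 chondrocyte markers were higher and 3 lower in the 16, beside 6.3% and 6.82% of all tested genes. The median difference of the 10 was -0.11. The 8 osteoclast markers summed to 4.87 to 5.47 FPKM with GW3965, below 6.34 to 7.43 with 25HC, 6.14 to 7.07 with 25HC3S and 6.46 to 6.73 in Vehicle in the 16, and Vehicle ran from 4.76 to 8.21 over all 5. Acp5, which encodes the tartrate-resistant acid phosphatase, fell with GW3965 in the 16 by 0.52 against Vehicle (SE 0.11) and by 0.58 against 25HC (SE 0.09). No osteoclast marker was called in either comparison with all 20 libraries. The part of these markers in the GW3965 differences of Ctsd, Npc2, Asah1, Sqstm1 and the other members was not tested.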

How the data were processed

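RNA of 20 libraries was extracted with Trizol and made into libraries with a fast RNA-seq kit, per the labels' protocols, and CASAVA 1.8 and HISAT2 2.0.5 were used, per the submitters' processing notes. The sources used here do not name the counter, its strand setting or the genome build, so overlapping or near-identical genes are uncertain. The authors deposited 1 table of FPKM with coordinates and lengths, and 36 of the 37 genes had the coordinates of GENCODE M21 (GRCm38). FPKM times length gave whole fragments within 0.02, from which depth was read. A median-of-ratios factor came out equal in all 20 libraries (1.01), so the deposited FPKM already carried a scaling of this kind between libraries.

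Every gene that reached 1 FPKM in 5 or more libraries entered a two-sided test of log2(FPKM + 1), run in R 4.3.3 by limma 3.58.1, with 1 mean per group, 1 spread for all groups and Benjamini-Hochberg adjustment over 12752 genes. The log scale understates changes of low genes. FPKM are not counts, so no count test was the main one. The genes, lists and alternatives were chosen with earlier results of these data known, as were the 4 libraries left out. Values by library are given for genes called in any comparison, with all 20 libraries or 16, and for Tfeb, and other list genes are named by size of difference, up to 4 a list. The steps were tested on simulated data. Replicate numbers were not treated as pairs. Same-numbered libraries of 2 groups deviated from their group means with correlations from -0.70 to 0.27. The 4 libraries that stood apart entered those means, so the correlations cannot show whether the numbers pair libraries.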

Additional observations from a re-analysis of the deposited data

Results flagged for a closer look

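Of 84 groups of 5 libraries (21 genes in 4 groups), 13 held a library whose gap to its nearest neighbour, divided by the range of the group, passed the Dixon limit for 5 values. Chance flags about 1 in 20 such groups. Replicate 1 of 25HC3S accounted for 10 of the 13. In Vehicle, replicates 3 and 4 often lay beside each other, which leaves no wide gap for this rule to find. The lack of Vehicle flags therefore says nothing about Vehicle replicates 2, 3 and 4. It was low for Ctsb (139 FPKM), Ctsd (269.7), Ctsk (77.8), Ctsl (40.5), Gabarapl1 (29.4), Hexa (93.4), Npc2 (38.2), Psap (324) and Tfeb (0.996), and high for Scarb2 (22.5). The other flags were small in size: Atp6v0d1 was high in 25HC3S replicate 4 (70.7 FPKM), and in GW3965 replicate 4 Psap was high (639) and Tpp1 low (41.6).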

How the results depend on the processing

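The counts of the 37 genes called depended on which libraries and groups set the spread. With all 20 libraries they were 1 for 25HC3S minus 25HC, 0 for 25HC minus Vehicle, 2 for 25HC3S minus Vehicle, 7 for GW3965 minus Vehicle, 0 for GW3965 minus 25HC and 5 for GW3965 minus 25HC3S. For 25HC3S minus 25HC, leaving out the 4 libraries gave 10 and library weights 6. Over all tested genes 20 were called higher and 84 lower with all 20 libraries. These became 317 and 599, and 362 and 691, in the same order. For 25HC3S minus Vehicle, no filter gave 1, only the 2 groups 0, TPM scaling 0, library weights 4 and no variance trend 1. Over all tested genes 59 were called higher and 146 lower with all 20 libraries. These became 56 and 117 of 29742 genes, 6 and 17, 68 and 114, 283 and 486, and 57 and 142. For GW3965 minus Vehicle, only the 2 groups gave 0, while calls over all tested genes went from 445 higher and 379 lower to 84 and 68. For GW3965 minus 25HC, leaving out the 4 gave 9, only the 2 groups 7, library weights 6 and GC correction, chosen after seeing the data, 1. Over all tested genes 108 were called higher and 114 lower with all 20 libraries. These became 804 and 870, 678 and 749, 786 and 890, and 136 and 164. For GW3965 minus 25HC3S, leaving out the 4 gave 15, no filter 2, TPM scaling 2 and library weights 13. Over all tested genes 320 were called higher and 271 lower with all 20 libraries. These became 1182 and 1096, 302 and 234 of 29742 genes, 269 and 303, and 1236 and 1136. The causes were not tested.

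Leaving out single libraries gave 1 for 25HC3S minus 25HC, 0 to 19 for 25HC minus Vehicle, 1 to 4 for 25HC3S minus Vehicle, 2 to 18 for GW3965 minus Vehicle, 0 for GW3965 minus 25HC and 2 to 4 for GW3965 minus 25HC3S. For GW3965 minus Vehicle, 18 came without Vehicle 1 or without Vehicle 5, beside 14.3% and 13.1% of all tested genes higher and 11.2% and 10.4% lower. For 25HC minus Vehicle, 19 came without Vehicle 1, beside 11.3% higher and 9.52% lower. Replicate numbers were not treated as pairs in the main fit. A replicate block gave 1 for 25HC3S minus 25HC, 0 for 25HC minus Vehicle and 1 for 25HC3S minus Vehicle. It gave 4 for GW3965 minus Vehicle, 0 for GW3965 minus 25HC and 2 for GW3965 minus 25HC3S. Of all 12752 genes the block called 11, 1, 36, 278, 91 and 275 higher, in the same order. It called 71, 0, 115, 266, 100 and 232 lower.

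Without the 4 libraries the sign turned for 18 of the 37 genes in 25HC3S minus Vehicle, 12 in 25HC minus Vehicle, 8 each in 25HC3S minus 25HC, GW3965 minus Vehicle and GW3965 minus 25HC3S, and 0 in GW3965 minus 25HC. Sign turns were not counted over all tested genes. Among differences called with all 20 or with 16 libraries, signs turned under some alternative for 2 genes, both in 25HC3S minus Vehicle. Ctsb, at -0.02, was 0.029 with TPM scaling and -0.15 to 0.10 without single libraries. Npc2, at 0.09, was -0.23 without the 4, -0.20 with library weights and -0.021 to 0.20 without single libraries. Gpnmb kept its calls for 25HC3S minus 25HC and GW3965 minus 25HC3S under every alternative run, and Asah1 its call for GW3965 minus 25HC3S. A pseudocount of 0.1 changed no call among the 46 gene differences compared. Median-of-ratios scaling had nothing to change, because its factor was the same in all 20 libraries.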
